A study of Mus musculus with 18 samples.

Results

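Interferon and viral mimicry response genes were examined in single-cell transcriptomes of mouse embryos at E8.5 that lacked 1 of the DNA methyltransferases. The set held 9 of the 31053 genes in the files, chosen by symbol: the RNA sensors Ifih1 and Ddx58, the regulators Irf7 and Usp18, and the effectors Ifit1, Ifit3, Isg15, Bst2 and Rsad2. It was chosen with earlier results of these data known. Each of the 18 libraries is labelled as a single embryo of the 129S4/SvJae background, 7 as wild type (WT), 3 as null for Dnmt1 (Dnmt1 KO), 4 as null for Dnmt3a (Dnmt3a KO) and 4 as null for Dnmt3b (Dnmt3b KO), of which 2 shared most of their cell barcodes and were taken as 1 sample. No embryo was treated. The embryos came from natural matings of heterozygous parents of the 3 lines, the labels do not say which WT embryo belongs to which line, and tissue of the ectoplacental cone had been removed for genotyping.

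DNA methyltransferases keep many repeats and endogenous retroviruses silent. Dnmt1 copies methylation to the new strand after replication, while Dnmt3a and Dnmt3b place it at new sites. In many differentiated cells, transcripts from derepressed repeats can form double-stranded RNA that the cytosolic sensors MDA5 (encoded by Ifih1) and RIG-I (Ddx58) read as viral, a state called viral mimicry. The sensors signal through the adaptor Mavs to Irf3 and Irf7, which switch on type I interferon. Interferon then acts through its receptor and a complex that includes Stat2 and Irf9 to raise a large set of interferon-stimulated genes, and Usp18 dampens the receptor again. Early embryonic cells are known for a weak interferon response. The comparison of each KO with WT asks whether these genes were higher in embryos that lack a methyltransferase.

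Interferon-stimulated genes carry short GAAA repeats near their start, read by Irf and Stat complexes. The 250 bases before the start of 4 members are shown because these members gave the main results below, with every match to GAAA, 2 bases of any kind, GAAA on either strand in capitals. The sequences are from RefSeq, build GRCm38.p6, written 5′ to 3′ on the strand of the gene: Bst2 chr8:71537473-71537722 (minus), Rsad2 chr12:26456453-26456702 (minus), Isg15 chr4:156200819-156201068 (minus) and Ifit3 chr19:34583279-34583528 (plus).
Bst2: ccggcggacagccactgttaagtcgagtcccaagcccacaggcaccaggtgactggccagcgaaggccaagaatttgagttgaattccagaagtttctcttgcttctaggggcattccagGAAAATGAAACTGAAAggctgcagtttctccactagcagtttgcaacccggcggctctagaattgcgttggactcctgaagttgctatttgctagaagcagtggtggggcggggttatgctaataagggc
Rsad2: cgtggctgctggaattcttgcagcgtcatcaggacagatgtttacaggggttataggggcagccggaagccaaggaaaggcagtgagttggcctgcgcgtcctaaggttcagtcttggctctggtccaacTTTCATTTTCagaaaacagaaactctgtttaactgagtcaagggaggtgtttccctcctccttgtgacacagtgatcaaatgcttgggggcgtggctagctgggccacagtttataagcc
Isg15: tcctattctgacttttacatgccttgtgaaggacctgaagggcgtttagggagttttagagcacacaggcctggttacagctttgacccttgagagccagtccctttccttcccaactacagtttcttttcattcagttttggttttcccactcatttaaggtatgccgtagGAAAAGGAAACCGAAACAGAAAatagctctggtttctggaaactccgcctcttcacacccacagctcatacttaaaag
Ifit3: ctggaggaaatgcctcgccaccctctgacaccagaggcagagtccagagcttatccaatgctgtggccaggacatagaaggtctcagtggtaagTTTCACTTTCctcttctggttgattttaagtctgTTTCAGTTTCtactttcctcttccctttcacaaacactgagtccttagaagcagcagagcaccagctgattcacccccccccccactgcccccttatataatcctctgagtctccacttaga

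In these windows Isg15 held 3 overlapping matches that began 78, 72 and 66 bases before the start. Bst2 held 2 overlapping matches, at 130 and 124 bases, Ifit3 held 2 at 156 and 122 bases, and Rsad2 held 1 at 120 bases. The window of Ifit1 also held 2 matches, at 104 and 85 bases, while those of Ifih1, Ddx58 and Irf7 held none. No window was found for Usp18. In all, 5 of the 8 windows of members had a match, against 978 of all 32851 RefSeq windows of this length (2.98%). Of 41 other interferon-stimulated genes, 14 had a match in any of their windows (34.1%), a count by gene and not by window. CpG dinucleotides, the sites that methyltransferases modify, numbered 12 for Ddx58, 11 for Ifih1, 8 for Bst2, 6 for Rsad2, 4 each for Isg15 and Ifit1, 3 for Irf7 and 1 for Ifit3. The median over all windows was 6 and the quartiles were 2 and 16. A match describes letters only, and methylation was not measured in these libraries.

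The libraries held 162336 barcodes, of which 128881 had at least 1500 mouse UMIs (unique molecular identifiers, each counting 1 captured RNA molecule). After limits on mitochondrial and ribosomal RNA and removal of doublets 109962 cells remained, 34421 from WT, 7068 from Dnmt1 KO, 34004 from Dnmt3a KO and 34469 from Dnmt3b KO embryos, with 36516346 to 234638944 UMIs per library. Several libraries stood apart. Dnmt3b KO 1 and 2 shared 12249 cell barcodes, 86.5% of those of the first and 79.3% of those of the second, and the profiles of the same barcode were more alike (median correlation 0.305 over 500 barcodes) than those of different barcodes (-0.032). These libraries were summed as 1 sample, so that 17 samples entered the tests, and with shared barcodes of this pair taken once the cells number 102109. Dnmt3a RNA, in CPM (UMIs of a gene per 1000000 UMIs of its library or class), was at 15.1 and 7.55 in the libraries labelled Dnmt3b KO 11 and 12, both below the lowest WT library (23.1 CPM), and at 32.0 CPM in Dnmt3b KO 1 and 2 together. The Dnmt3a KO mean was 9.34 CPM ± 1.86 (SD, n = 4) and the WT mean 29.8 ± 3.88 (n = 7). Dnmt3b RNA was 63.0 CPM ± 5.63 in libraries labelled Dnmt3b KO (n = 3) and 62.3 ± 17.8 in WT, so it does not check those labels. Whether libraries 11 and 12 came from Dnmt3a KO embryos cannot be told from these values, and each result for Dnmt3b KO below is for the libraries under that label. Dnmt1 RNA was 14.9 to 15.7 CPM in the 3 Dnmt1 KO libraries and 83.3 to 116 CPM in WT. RNA of Y-linked genes was present in all 3 Dnmt1 KO and all 4 Dnmt3a KO libraries, in 3 of 4 labelled Dnmt3b KO and in 1 of 7 WT libraries, so sex is largely confounded with genotype. The paper, which added published embryos, also found a minor developmental delay in Dnmt1 KO. By cell type proportions those embryos were nearest to E8.0, and most others matched E8.25 to E8.5. In Dnmt1 KO against WT, stage and genotype therefore cannot be told apart.

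Levels of different genes are not compared, because 3′ capture differs between genes. Of the sensors, Ifih1 ranged from 0.216 CPM through a median of 0.301 to 0.332 in the 7 WT libraries. It was 0.508, 0.410 and 0.438 CPM in Dnmt1 KO 1, 2 and 3, all above the highest WT library. In Dnmt3a KO 13, 14, 1 and 2 it was 0.331, 0.281, 0.293 and 0.362 CPM, and in the libraries labelled Dnmt3b KO 11, 12, 1 and 2 it was 0.228, 0.450, 0.337 and 0.273 CPM, so both groups overlapped WT. The log2 fold change of Ifih1 in Dnmt1 KO against WT was 0.73 (SE 0.21, edgeR quasi-likelihood test with Benjamini-Hochberg adjustment, adjusted p = 0.0130). This did not meet the rule for a call, an adjusted p under 0.01 and a change of 1 log2 unit or more, up or down. Without the extraembryonic and immune-like classes described below, the log2 fold change was 1.28 (adjusted p = 0.000342) and met it. Of the 142 Ifih1 UMIs in Dnmt1 KO embryos, 56 (39.4%) lay in cells classed as epiblast, by name the pluripotent embryonic layer. This class made up 10.2% of the cells of Dnmt1 KO embryos and at most 0.34% of any other library. The paper reports epiblast markers such as Pou5f1 and Utf1 as upregulated across most cell types of Dnmt1 KO. The class may therefore hold later cells that express these markers, which was not tested. Depth differs between cells, so the share of UMIs and the share of cells are unlike measures.

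Ddx58 ranged from 2.42 CPM through 3.78 to 4.43 in WT. In Dnmt1 KO 1, 2 and 3 it was 4.27, 3.56 and 2.21 CPM, on both sides of the WT median. The 4 Dnmt3a KO libraries lay at 2.27, 3.61, 2.74 and 3.70 CPM, and those labelled Dnmt3b KO 11, 12, 1 and 2 at 3.07, 2.27, 3.92 and 3.71 CPM. No group was separated from WT, and the log2 fold change was -0.03 (SE 0.21) with Dnmt1 lost, -0.23 (SE 0.19) with Dnmt3a lost and -0.25 (SE 0.21) with Dnmt3b lost.

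The regulators were scarce. Irf7, the transcription factor that amplifies interferon production, gave 102 UMIs over all WT embryos and ranged from 0.0288 CPM through 0.0822 to 0.169. It was 0.124, 0.0835 and 0.20 CPM in the 3 Dnmt1 KO libraries and 0.0506 to 0.137 CPM in the 4 Dnmt3a KO libraries. Among those labelled Dnmt3b KO it was 0.0527 CPM in 11, 0.0974 in 12, 0.30 in 1 and 0.267 in 2, so the pair that shares barcodes was the highest of all 18 libraries. Usp18, an isopeptidase that removes Isg15 from proteins, ranged from 0.178 CPM through 0.253 to 0.520 in WT. It was 0.383, 0.144 and 0.563 CPM in Dnmt1 KO, 0.181 to 0.297 CPM in Dnmt3a KO and 0.103 to 0.389 CPM in the libraries labelled Dnmt3b KO. Every KO group overlapped WT for both regulators. The log2 fold changes in Dnmt1 KO were 0.66 (SE 0.55) for Irf7 and 0.54 (SE 0.41) for Usp18, with adjusted p-values of 0.373 and 0.322.

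**Figure D1:**
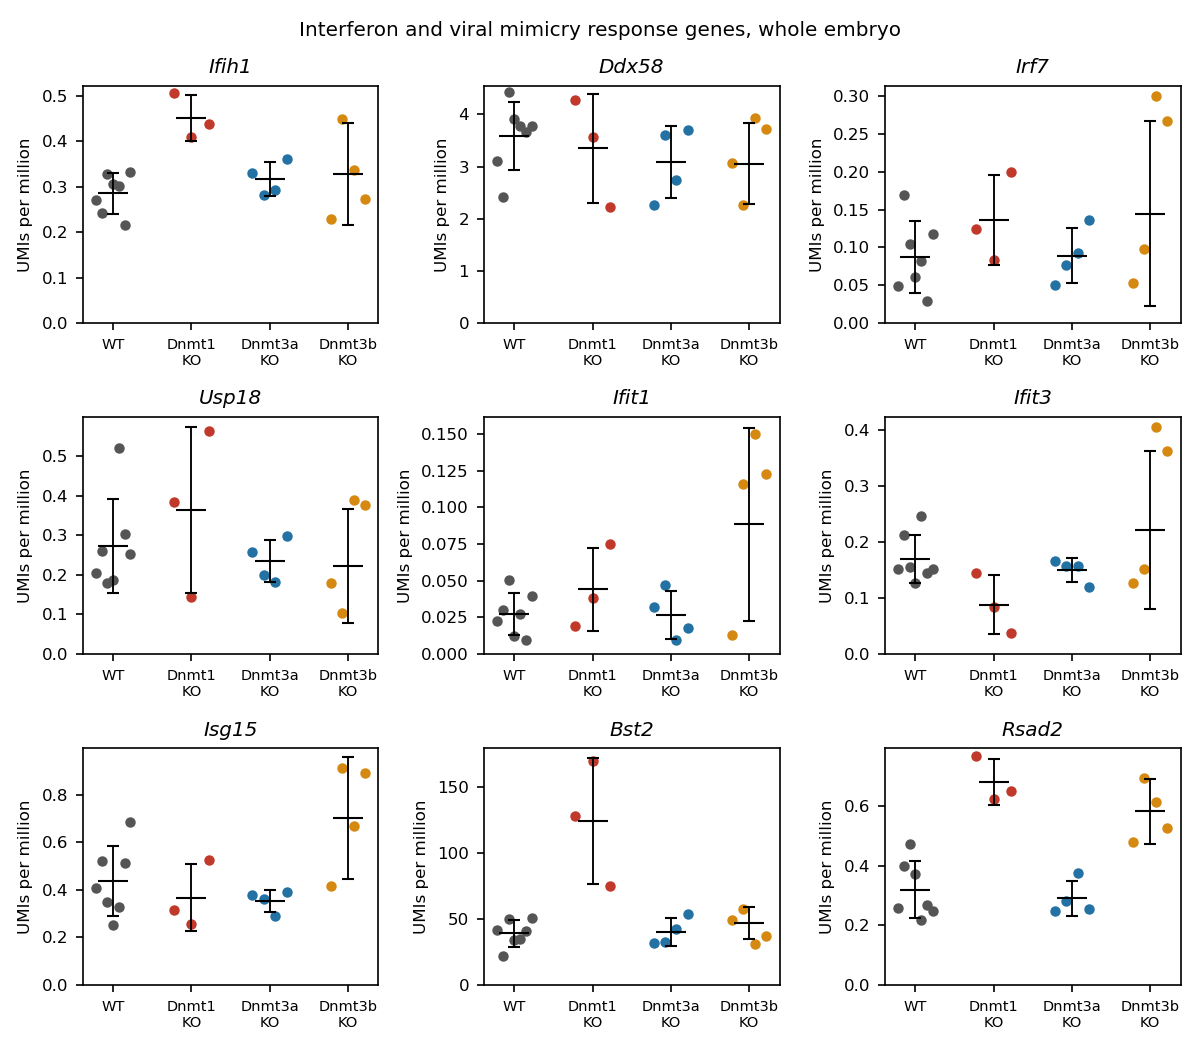
Level of the 9 members in each of the 18 libraries, in CPM on a linear axis with 1 panel per gene, where points are libraries, horizontal lines are group means and error bars are 1 SD (Dnmt3b KO 1 and 2 summed as 1 sample in the mean and SD). Bst2 and Rsad2 lie higher in all 3 Dnmt1 KO libraries than in any WT library, while the 2 libraries Dnmt3b KO 1 and 2 are the highest for Irf7, Ifit1 and Ifit3.

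Bst2 encodes tetherin, a membrane protein that holds budding virus particles at the cell surface. It was 21.9, 40.7 and 51.1 CPM in the lowest, median and highest WT library, and 128, 170 and 74.9 CPM in Dnmt1 KO 1, 2 and 3. The 4 Dnmt3a KO libraries lay at 31.6, 32.5, 42.7 and 53.8 CPM, and the libraries labelled Dnmt3b KO 11, 12, 1 and 2 at 49.3, 58.0, 31.0 and 37.2 CPM. The Dnmt1 KO embryos did not overlap any other library. Bst2 rose in Dnmt1 KO by 1.73 in log2 units (SE 0.25, edgeR quasi-likelihood test, adjusted p = 4.72e-05), against 0.03 (SE 0.24) in Dnmt3a KO and 0.24 (SE 0.26) in Dnmt3b KO. These 3 comparisons share the same 7 WT embryos. In sums over a whole embryo, more cells of a type that holds the gene and more RNA per cell cannot be told apart, and extraembryonic ectoderm made up 4.63 to 31.1% of the cells of Dnmt1 KO libraries and at most 1.71% of any WT library. Extraembryonic endoderm was 415 of 1464, 809 of 3054 and 237 of 2550 cells in Dnmt1 KO 1, 2 and 3. Its shares in WT ran from 369 of 3952 cells (WT 4) to 1051 of 5374 (WT 3). Without the extraembryonic and immune-like classes the log2 fold change was 1.80 (SE 0.23, adjusted p = 1.37e-05). That fit kept the class named epiblast, which was rare outside Dnmt1 KO, so the groups still differed in their cell types.

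Rsad2 encodes viperin, an enzyme that blocks the replication of many viruses. It was 0.219, 0.269 and 0.471 CPM in the lowest, median and highest WT library and 0.766, 0.623 and 0.651 CPM in the 3 Dnmt1 KO libraries. Dnmt3a KO libraries lay at 0.248 to 0.376 CPM and the libraries labelled Dnmt3b KO 11, 12, 1 and 2 at 0.479, 0.694, 0.614 and 0.53 CPM. The Dnmt1 KO libraries and those labelled Dnmt3b KO were thus all above the highest WT library. Rsad2 rose in Dnmt1 KO by 1.12 in log2 units (SE 0.24, adjusted p = 0.00142), and the value in Dnmt3b KO was 0.79 (SE 0.23, adjusted p = 0.0748). The call in Dnmt1 KO was lost under several alternatives, among them those without the extraembryonic and immune-like classes (log2 fold change 1.13, adjusted p = 0.0897), with Y-linked RNA as a covariate (adjusted p = 0.0347) and without Dnmt1 KO 1 (adjusted p = 0.0108). Of the 214 Rsad2 UMIs in Dnmt1 KO embryos, 101 lay in extraembryonic endoderm, 56 in endothelium and 35 in the immune-like class.

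Isg15, a ubiquitin-like protein that is joined to other proteins, ranged from 0.253 CPM through 0.408 to 0.687 in WT. It was 0.316, 0.258 and 0.525 CPM in Dnmt1 KO, 0.288 to 0.392 CPM in Dnmt3a KO and 0.417, 0.913, 0.666 and 0.889 CPM in the libraries labelled Dnmt3b KO 11, 12, 1 and 2. All groups overlapped WT, with log2 fold changes of -0.22 (SE 0.32), -0.33 (SE 0.28) and 0.62 (SE 0.29).

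Ifit1 and Ifit3 belong to a family of RNA-binding proteins that bind viral RNA and slow its translation. Each has closely related copies beside it on chromosome 19, so reads can be split between copies and the counts are uncertain. Ifit3 ranged from 0.126 CPM through 0.152 to 0.246 in WT and was 0.144, 0.0835 and 0.0375 CPM in Dnmt1 KO, so 2 of 3 Dnmt1 KO libraries were below the lowest WT library. It was 0.119 to 0.166 CPM in Dnmt3a KO, and 0.127, 0.152, 0.404 and 0.362 CPM in the libraries labelled Dnmt3b KO 11, 12, 1 and 2. Ifit1 gave 33 UMIs in all WT embryos and ranged from 0.00960 to 0.0503 CPM. It was 0.0192, 0.0380 and 0.0751 CPM in Dnmt1 KO and 0.00976 to 0.0469 CPM in Dnmt3a KO. The libraries labelled Dnmt3b KO 12, 1 and 2 were above every WT library, at 0.116, 0.150 and 0.123 CPM, but Dnmt3b KO 11 was not (0.0132 CPM). The log2 fold changes of Ifit3 were -0.81 (SE 0.39, adjusted p = 0.118) in Dnmt1 KO and 0.38 (SE 0.33) in Dnmt3b KO, and that of Ifit1 in Dnmt3b KO was 1.59 (SE 0.56, adjusted p = 0.145).

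All 9 members passed the filter on low counts, along with 18760 genes in all. The 9 were chosen with earlier results of these data known, so their counts beside those of all genes are a description. In Dnmt1 KO against WT, 2 of the 9 were called higher (Bst2 and Rsad2), where 8.15% of all genes tested were, and none was called lower, where 6.11% were. In Dnmt3a KO against WT none was called in either direction by the edgeR quasi-likelihood test or by DESeq2, and 0 had an unadjusted p under 0.05, where 9.53% of all genes did, with 0.213% of all genes called higher and 0.0107% lower. In Dnmt3b KO against WT none was called by edgeR or DESeq2 either and 3 had an unadjusted p under 0.05, where 17.9% of all genes did, with 1.77% of all genes called higher and 0.0267% lower. Without the libraries labelled Dnmt3b KO 11 and 12 that group held 1 sample, assumed to vary like the other groups. None was called in that fit, and the log2 fold changes in Dnmt3b KO were 2.18 (SE 0.60) for Ifit1, 1.59 (SE 0.59) for Irf7, 1.13 (SE 0.38) for Ifit3, 0.71 (SE 0.36) for Rsad2 and -0.28 (SE 0.41) for Bst2. The median log2 fold change of the 9 members was 0.66 against WT for Dnmt1 KO, -0.15 for Dnmt3a KO and 0.38 for Dnmt3b KO, beside 0.01, 0.00 and -0.01 over all genes tested.

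The KO groups were also set against each other. Against Dnmt3a KO, Bst2 (log2 fold change 1.70, SE 0.29, adjusted p = 0.000318) and Rsad2 (1.31, SE 0.27, adjusted p = 0.00131) were called higher in Dnmt1 KO, 2 of 9 members where 6.87% of all genes were called higher and 6.46% lower. Against Dnmt3b KO only Bst2 of the 9 members was called higher in Dnmt1 KO (1.49, SE 0.32, adjusted p = 0.00273; 1.17 and adjusted p = 0.0202 without Dnmt1 KO 2), where 3.72% of all genes were called higher and 4.96% lower. For Rsad2 that difference was 0.33 (SE 0.28, adjusted p = 0.389). Without the libraries labelled Dnmt3b KO 11 and 12 no member was called against Dnmt3b KO, which then held 1 sample, and Bst2 was at 2.0 (SE 0.50, adjusted p = 0.0170). Between Dnmt3b KO and Dnmt3a KO no member was called by edgeR or DESeq2, 3 had an unadjusted p under 0.05, where 6.82% of all genes did, and 0.203% of all genes were called higher and 0.0107% lower.

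**Figure D2:**
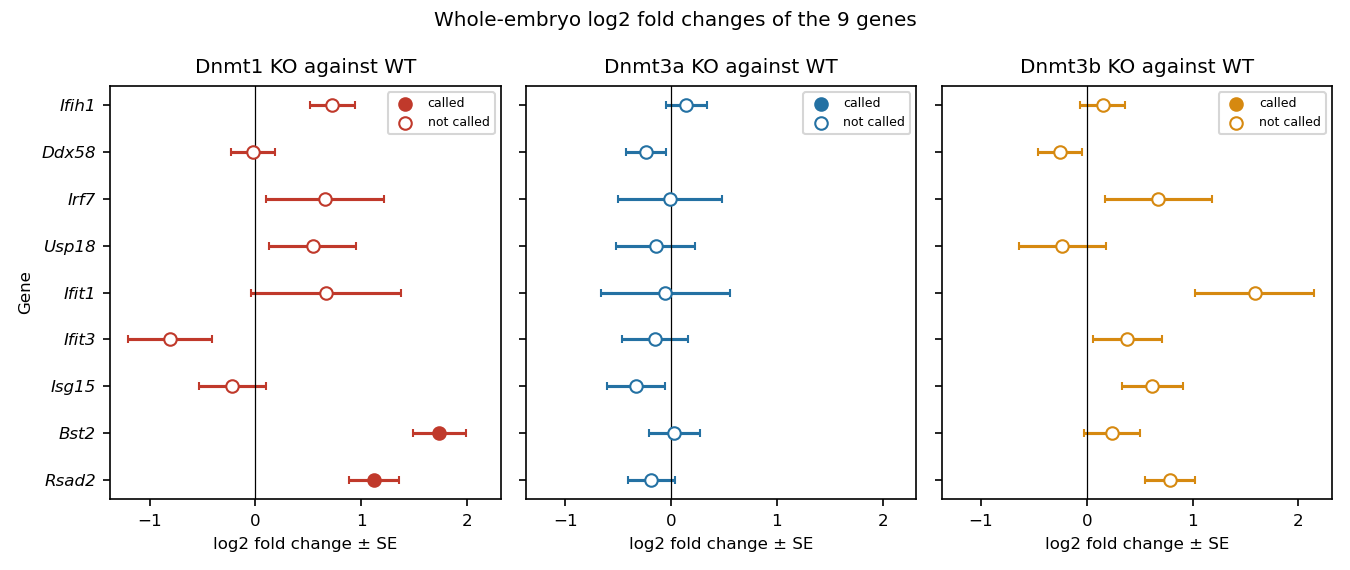
Log2 fold change of each member in the 3 KO groups against WT over the whole embryo, with bars for 1 standard error and filled points for called values. Bst2 at 1.73 and Rsad2 at 1.12 in Dnmt1 KO are the called values, and the Dnmt3a KO values lie between -0.33 and 0.14.

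Cells were sorted into 21 classes by marker genes, and levels are ranked here over the 17 classes with at least 25 cells in 3 or more WT embryos, which leaves out the immune-like class. ExE endoderm, the extraembryonic layer that lines the yolk sac, held 73.6% of the WT Bst2 UMIs in 12.8% of the cells, at 192 CPM ± 13.3 (SD, n = 7). Endothelium came next at 68.9 CPM ± 19.4 and did not overlap it. Notochord, the midline rod of the embryo, followed at 32.2 ± 24.5 (n = 4), surface ectoderm at 19.2 ± 5.24 and gut at 18.7 ± 5.69, and neighbours in this order did not differ beyond their spread. Rsad2 was highest in endothelium (2.70 CPM ± 1.61), which held 36.0% of its WT UMIs, and then in ExE endoderm (0.785 ± 0.294), which held 39.8%. Ifit3 was concentrated in ExE mesoderm, the mesoderm of the yolk sac and amnion, with 2.03 CPM ± 0.527 and 63.2% of its WT UMIs in 4.91% of the cells. The WT libraries ranged there from 1.02 to 2.61 CPM, and the next class was at 0.445 ± 0.891 (n = 4).

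Among the ranked classes the notochord held the highest mean of several members, in only 148 WT cells. Usp18 was 15 CPM ± 12.7 there (n = 4), with 26.9% of its WT UMIs in 0.43% of the cells, and the next class was gut at 0.652 ± 0.391. Ddx58 was 29.7 CPM ± 9.86 in notochord (n = 4), 10.2 ± 0.922 in ExE endoderm and 9.70 ± 1.68 in gut. The last pair did not differ beyond its spread, while notochord lay above both. Isg15 was 6.87 CPM ± 7.75 in notochord (n = 4), a mean smaller than its SD, and 1.18 ± 0.508 in erythroid cells, the red blood cells of the yolk sac, which held 33.9% of its WT UMIs. Ifih1 was low in every class, with overlapping values of 1.02 CPM ± 1.19 in notochord, 0.791 ± 0.640 in neuromesodermal progenitors (NMP) and 0.723 ± 0.457 in cardiomyocytes. Of the ranked classes Irf7 was highest in presomitic mesoderm (0.443 CPM ± 0.318, 18 UMIs). The immune-like class, with 159 WT cells (0.462%), was above it at 6.47 CPM over all WT embryos and held 36.3% of the Irf7 UMIs. Pooled over WT in the same way, Isg15 was at 13.5 CPM in that class and 6.64 in notochord, and Rsad2 was at 6.12 CPM and 3.13 in endothelium. These levels of the immune-like class rested on few cells. Of the class's UMIs of Irf7, Usp18, Ifit1, Ifit3, Isg15 and Rsad2, 3 cells held 61 of 65 in WT 3. A single cell held all 12 in WT 5, and WT 4 had 0. In WT 1 and 6 no cell of the class had 3 or more of these members, and the class held 9 and 7 UMIs. Ifih1 and Ifit1 rested in that class on 8 and 9 UMIs, at 1.40 and 1.57 CPM, where the pooled values in notochord were 1.15 CPM from 5 UMIs and 1.83 CPM from 8 UMIs, so no order is read from them. As a mean over libraries Ifit1 was 1.43 CPM ± 1.51 in notochord and had a mean of at most 0.126 CPM in the other classes with enough cells.

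**Figure D3:**
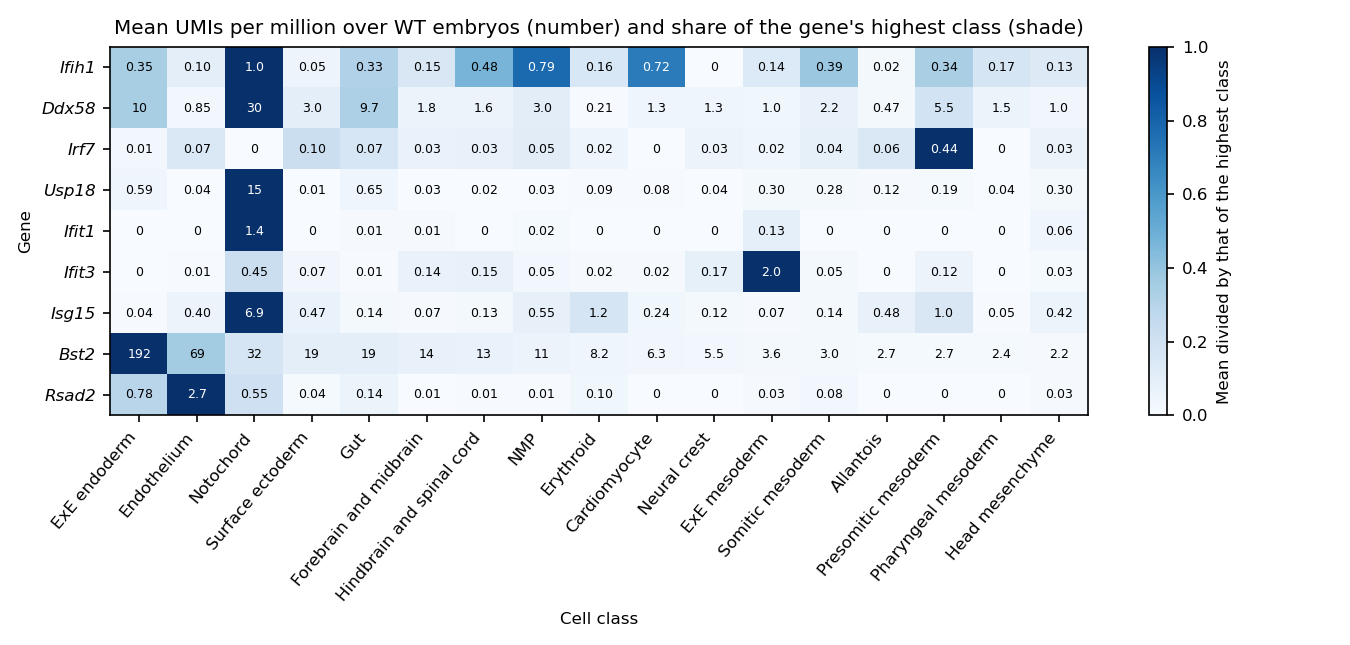
Mean level of each member in WT embryos by cell class, in CPM, printed in each cell, with the shade as the share of the highest class of that gene, so that shades are not comparable between genes. Bst2 is highest in ExE endoderm at 192 CPM, Ifit3 in ExE mesoderm at 2.03 CPM, Rsad2 in endothelium at 2.70 CPM and Usp18 in notochord at 15 CPM, of the 17 classes drawn.

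The genes whose level over the 17 WT classes was most like that of a member were found by Pearson's r of log2(CPM + 1), as a description over classes that share libraries. For Bst2 these were Plekhf2 (r = 0.920), Mfsd13a (0.913) and Syngr2 (0.907). For Rsad2 they were Cyp4b1 (0.966), Gimap1 (0.959) and Tnfrsf13b (0.957), and for Ddx58 Yipf2 (0.933), Dmgdh (0.928) and Fhit (0.921). Ifit3 had Tnfrsf11b (0.979), Mustn1 (0.968) and Ifit1bl2 (0.964), the last from its own family. Usp18 had 1700001C02Rik (0.989), BB365896 (0.983) and Nme9 (0.980), and Ifit1 had Krt25 (0.994), Noto (0.990) and Dnajb13 (0.989), of which Noto is a notochord transcription factor. The notochord mean of Usp18 and Ifit1 stood far above their other classes, so these r values rest largely on that small class. Those of Ifit3 rest in the same way on ExE mesoderm. Isg15 had Dscaml1 (0.929), Tsnaxip1 (0.887) and Txk (0.887), Irf7 had Atp6v1g3 (0.956), Krt86 (0.955) and Gm49162 (0.950), and Ifih1 had Pdrg1 (0.854), Cpeb1 (0.837) and Vps39 (0.801).

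Bst2 was then compared within classes that had at least 25 cells per embryo in 3 embryos of each group. In gut, the embryonic endoderm, Bst2 was 12.2, 17.3 and 27.0 CPM in the lowest, median and highest WT library and 112, 76.4 and 99.2 CPM in Dnmt1 KO 1, 2 and 3, from 31, 42 and 42 cells. Dnmt3a KO libraries lay at 10.6 to 16.2 CPM in gut, and those labelled Dnmt3b KO 11, 12, 1 and 2 at 17.7, 46.5, 13.6 and 16.8 CPM. The Dnmt1 KO embryos were above every other library in this class. In erythroid cells Bst2 was 5.45, 7.65 and 12.8 CPM in WT (lowest, median, highest) and 43.0, 32.7 and 41.1 CPM in Dnmt1 KO. In presomitic mesoderm, the precursor of the somites, it was 1.31, 2.36 and 4.86 CPM in WT and 13.3, 10.1 and 18.4 CPM in Dnmt1 KO. In ExE mesoderm it was 1.83, 3.70 and 4.74 CPM in WT and 6.11, 12.4 and 7.35 CPM in Dnmt1 KO. In these 4 classes no Dnmt1 KO value overlapped WT.

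Bst2 rose in Dnmt1 KO against WT by 2.54 log2 units in gut (SE 0.26, edgeR quasi-likelihood test, adjusted p = 7.21e-07), 2.45 in presomitic mesoderm (SE 0.35, adjusted p = 2.05e-05), 2.08 in erythroid cells (SE 0.26, adjusted p = 7.49e-06) and 1.28 in ExE mesoderm (SE 0.25, adjusted p = 0.000562). The ExE mesoderm call was lost without Dnmt1 KO 2 (0.94, adjusted p = 0.0127). In the classes where Bst2 was highest in WT it was not called. ExE endoderm was at 166, 194 and 208 CPM in WT and 223, 234 and 237 CPM in Dnmt1 KO, all above WT (log2 fold change 0.28, SE 0.13, adjusted p = 0.114). Endothelium overlapped WT in 1 of 3 Dnmt1 KO libraries, the other 2 being lower, at 53.4, 57.9 and 101 CPM in WT and 49.1, 65.7 and 40.0 CPM in Dnmt1 KO (log2 fold change -0.30, SE 0.28, adjusted p = 0.446). ExE ectoderm, the precursor of the placenta, could not be tested because WT 2 alone held enough cells (120 CPM in 123 cells), and it stood at 253, 235 and 246 CPM in Dnmt1 KO. The class named epiblast, with the limit given above, had enough cells only in Dnmt1 KO, at 81.8, 86.2 and 89.4 CPM. Those classes held 34.3% and 7.98% of the Bst2 UMIs of Dnmt1 KO embryos.

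Whether Bst2 changed by different amounts between classes was tested per embryo, as the log2 CPM of a class minus that of ExE endoderm in the same embryo, with a pseudocount of 1 CPM. The difference between Dnmt1 KO and WT was 2.05 in gut, 1.89 in erythroid cells, 1.78 in presomitic mesoderm and 0.78 in ExE mesoderm (exact two-sided permutation test of 3 against 7 embryos, p = 0.0167 each, the smallest value this design allows, adjusted p = 0.0208 over 5 tests). In endothelium it was -0.67 (exact permutation p = 0.0333, adjusted p = 0.0333), and -0.47 (exact permutation p = 0.143) where at least 50 cells per embryo were asked for. That setting left fewer Dnmt1 KO embryos, so its p could not fall under 0.05. The 5 tests share the ExE endoderm values and were added after the class values had been seen. Without any 1 of the Dnmt1 KO embryos the smallest p the design allows is 0.0556.

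**Figure D4:**
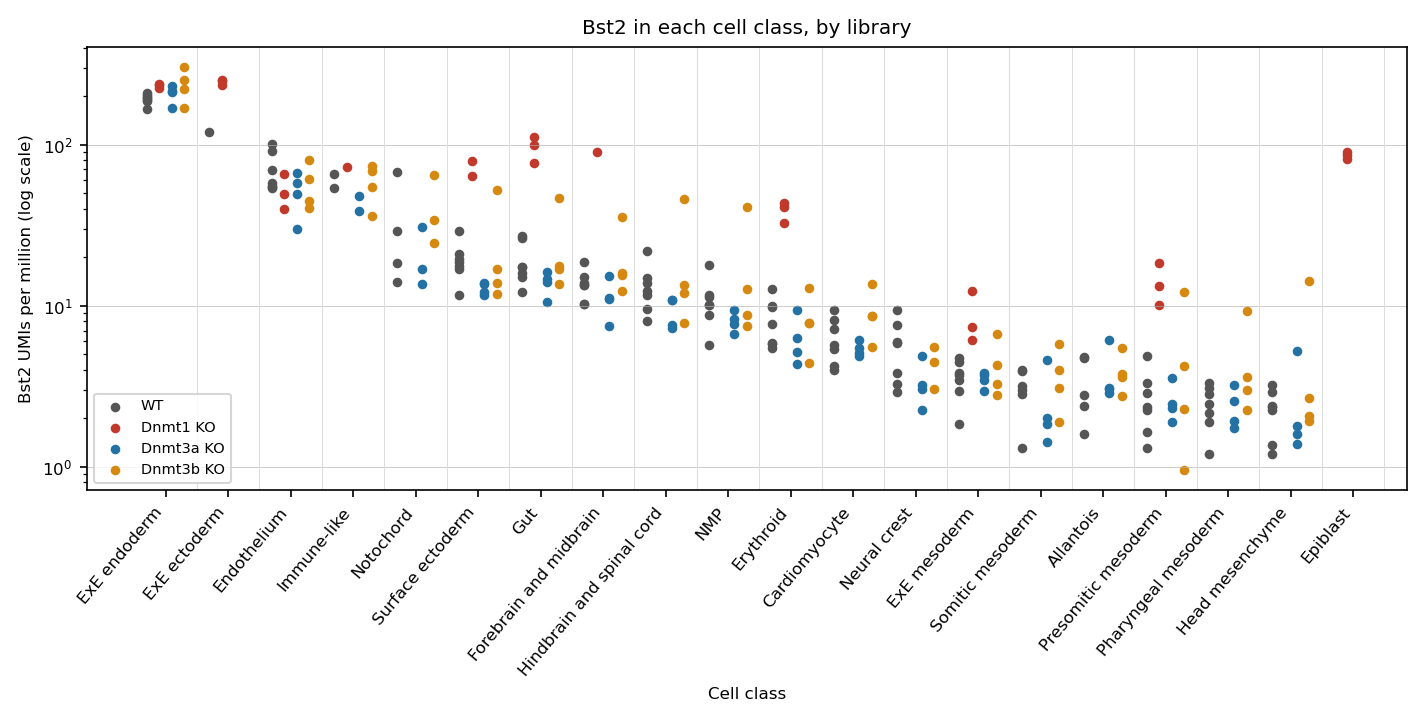
Bst2 level by cell class and library in CPM on a log axis, for classes with at least 25 cells in a library, with points coloured by group. Dnmt1 KO points lie above all WT points in gut (76.4 to 112 CPM), erythroid cells, presomitic mesoderm and ExE mesoderm. In endothelium 2 of the 3 lie below the lowest WT point and 1 lies among the WT points, and 1 value of 0 (WT 5, allantois, 32 cells) is not drawn.

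The make-up of the classes differed between the groups, and the developmental delay of Dnmt1 KO given above is not separated from genotype within classes either. In 10 clusters 87.7 to 99.1% of the cells clustered were from Dnmt1 KO, among them cluster 60 for gut, 42 for presomitic mesoderm, 46 for erythroid cells, 17 for ExE mesoderm and 8 for ExE endoderm. Endothelium was split by group as well. Its cluster 52 was 76.8% Dnmt1 KO and 8.0% WT, while its clusters 33, 44 and 58 were 0.6, 0.8 and 0.0% Dnmt1 KO. Cells of no named class made up 5.99 to 35.8% of Dnmt1 KO libraries and 11.4 to 25.5% of WT libraries. Of the presomitic mesoderm markers, Rspo3 alone was among the 10 leading genes of cluster 42. Scored by markers, that cluster was at 1.44 for presomitic mesoderm and 1.07 for intermediate mesoderm. No marker of erythroid cells was among the 10 leading genes of cluster 46, and only 17 of 69, 16 of 147 and 29 of 157 Dnmt1 KO erythroid cells had at least 5% haemoglobin UMIs. In those cells alone Bst2 was 37.9, 26.3 and 35.1 CPM, against 4.87 to 10.7 CPM in the same cells of WT. In erythroid cells under 5% it was 45.2, 33.2 and 41.9 CPM in Dnmt1 KO and higher in WT too, at 8.08 to 19.6 CPM.

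Markers of other cell types were summed in the same classes. The 9 markers of ExE endoderm summed to 1566 CPM in Dnmt1 KO and 1003 CPM in WT gut, where WT reached 1565 CPM. They were at 91.8 against 97.8 CPM in erythroid cells, 82.5 against 97.1 CPM in presomitic mesoderm and 70.5 against 117 CPM in ExE mesoderm, all 9 seen in each group. The 8 markers of ExE ectoderm, of which 4 to 8 were seen in each Dnmt1 KO library, were higher in Dnmt1 KO, at 147 CPM in Dnmt1 KO against 22.1 in WT in ExE mesoderm, 110 against 51.9 in presomitic mesoderm, 14.3 against 1.31 in erythroid cells and 76.2 against 51.1 in gut. Immune markers were at 26.5 CPM in Dnmt1 KO and 1.43 CPM in WT erythroid cells and at 1.51 to 3.70 CPM in both groups in the other classes. Their part in the Bst2 values was not tested. The paper reports markers of extraembryonic tissue as upregulated within most cell types of Dnmt1 KO. A higher sum of ExE ectoderm markers in a class therefore need not come from cells or RNA of ExE ectoderm.

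Other members were called in single classes. Ddx58 was 3.1, 5.02 and 11 CPM in presomitic mesoderm of WT (lowest, median, highest) and 1.04, 1.44 and 0.932 CPM in Dnmt1 KO. It fell there by 2.31 in log2 units (SE 0.43, adjusted p = 0.000350), in a class whose Dnmt1 KO cells lay mostly in cluster 42. The Dnmt1 KO values come from 76, 108 and 170 cells and rest on few Ddx58 UMIs each. In ExE endoderm, the class with 43.5% of its WT UMIs, Ddx58 was 8.68, 10.1 and 11.3 CPM in WT and 8.10, 7.20 and 7.72 CPM in Dnmt1 KO (log2 fold change -0.40, SE 0.11, adjusted p = 0.0122, not called). Ifit3 was 1.02, 2.11 and 2.61 CPM in ExE mesoderm of WT and 0.694, 0.590 and 0.150 CPM in Dnmt1 KO, from 10, 7 and 2 UMIs. It fell by 2.01 in log2 units (SE 0.42, adjusted p = 0.00101). Isg15 was 0.720, 1.04 and 2.28 CPM in erythroid cells of WT and 1.87, 2.92 and 4.20 CPM in Dnmt1 KO, from 6, 16 and 14 UMIs, and rose by 1.16 in log2 units (SE 0.31, adjusted p = 0.00615). The Isg15 call was lost with Y-linked RNA as a covariate (adjusted p = 0.0294), without the filter on low counts (adjusted p = 0.0187), with Dnmt3b KO 1 and 2 taken as separate samples (adjusted p = 0.0182) and without Dnmt1 KO 2 or 3 (adjusted p = 0.0290 and 0.0710), WT 1, 2 or 3 or Dnmt3b KO 2 (adjusted p = 0.0105 to 0.0119). In erythroid cells under 5% haemoglobin UMIs Isg15 was 2.66, 2.96 and 4.77 CPM in Dnmt1 KO, from 6, 15 and 14 UMIs, and 0.88 to 4.3 CPM in WT, so the groups overlapped. The cells of this class with at least 5% held 1 Isg15 UMI in all of Dnmt1 KO, too few to read, and the immune markers given above were higher in this class. Rsad2 in endothelium was 0, 2.96 and 4.96 CPM in WT and 2.37, 5.90 and 10.8 CPM in Dnmt1 KO (log2 fold change 1.05, SE 0.48, adjusted p = 0.110, not called).

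In Dnmt1 KO 19 pairs of member and class could be tested in 6 classes. Of these 5 were called higher and 2 lower, where 4.91% and 3.34% of all 75271 pairs of gene and class were. In Dnmt3a KO none of 43 pairs was called by edgeR or DESeq2 and 6 had an unadjusted p under 0.05, where 10.2% of all pairs did, and 0.105% and 0.0183% of all pairs were called higher and lower. In Dnmt3b KO none of 38 pairs was called by edgeR, 1 was called higher by DESeq2, where 0.827% of all pairs were, and 11 had an unadjusted p under 0.05, where 15.1% of all pairs did. By edgeR 0.71% and 0.0347% of all pairs were called higher and lower. The pair called by DESeq2 was Rsad2 in endothelium, at 7.93, 15.1, 10.3 and 7.56 CPM in the libraries labelled Dnmt3b KO 11, 12, 1 and 2, all above the highest WT library at 4.96 CPM. The Dnmt3a KO libraries lay at 1.57 to 5.15 CPM. Its log2 fold change in Dnmt3b KO was 1.77 (SE 0.40, adjusted p = 0.0208) by edgeR and 1.83 (adjusted p = 0.00245) by DESeq2.

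The library labelled Dnmt3b KO 12 differed from the others of its group for Bst2. Leaving aside Dnmt1 KO, it had the highest Bst2 level of all libraries in 13 of 16 classes, where Dnmt3b KO 11 and 1 had it in 0 and Dnmt3b KO 2 in 1 of 18 classes each. Its Bst2 was 52.1 CPM in surface ectoderm, 46.5 in gut, 46.2 in hindbrain and spinal cord, 40.7 in NMP and 35.6 in forebrain and midbrain. In surface ectoderm the WT libraries lay at 11.6 to 29.0 CPM and Dnmt1 KO 1 and 2 at 63.8 and 78.7 CPM. This library is the one counted with Cell Ranger 5.0.0 in place of 3.1.0, had low Dnmt3a RNA and was the only one labelled Dnmt3b KO without Y-linked RNA, and their part in the values was not tested.

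Most cells with several members at once were in the immune-like class. Of 109962 cells, 44 had UMIs of at least 3 of the 6 members Irf7, Usp18, Ifit1, Ifit3, Isg15 and Rsad2, and 31 of these were in that class, which held 531 cells. With cells of the same barcode in Dnmt3b KO 1 and 2 taken once, they were 24 of 35 such cells, in a class of 496 cells. The class is named for 1 cluster led by Lyz2, Fcer1g, Tyrobp and Cd52, but most of its cells lacked a UMI of Ptprc or Cd52. The cells with several members numbered 9 of 40 cells of the class in Dnmt3b KO 1, 7 of 42 in Dnmt3b KO 2, 1 of 53 in Dnmt3b KO 12 and 0 of 29 in Dnmt3b KO 11. In Dnmt1 KO 1, 2 and 3 they numbered 2 of 24, 2 of 31 and 1 of 20, and over all WT embryos 7 of 159. All 7 of Dnmt3b KO 2 had the barcode of 1 of the 9 in Dnmt3b KO 1, so the pair held 9 of the 24 barcodes. In Dnmt3b KO 1 the immune-like class held 18 of the 20 Ifit1 UMIs, 30 of 40 for Irf7, 33 of 54 for Ifit3 and 49 of 89 for Isg15. The class held 15.2 to 18.0% of the UMIs of the 6 members in Dnmt1 KO libraries, 0 to 23.1% in WT and 2.21 to 10.7% in Dnmt3a KO, so these ranges overlapped between Dnmt1 KO and WT. In libraries labelled Dnmt3b KO 11, 12, 1 and 2 it held 1.73, 14.1, 42.1 and 29.3%, which is 22.7% over all 4 and 8.41% without the pair that shares barcodes.

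The 24 cells, with shared barcodes taken once, had 1575 to 7346 UMIs, with a median of 3725.5, against a median of 36274.5 in the other 472 cells of the class. Ptprc, the leukocyte antigen CD45, was seen in 23 of them, and Lyz2 of macrophages and neutrophils, Tyrobp and Cd52 in all 24, while Dnmt3b RNA, present in embryonic cells, was at 0 UMIs. Of the other 472 cells, Ptprc was seen in 25, Cd52 in 36, Csf1r in 45, Tyrobp in 121 and Lyz2 in 143, and Dnmt3b in 405, so most of them are not shown to be immune cells by these markers. Of the 24 cells, 17 were in libraries with Y-linked RNA. Of these 17, with a median of 3697 UMIs, 11 had Xist RNA, made from the inactive X chromosome, and 2 had a Y-linked UMI. The other 294 cells of the class in the same libraries had a median of 36011.5 UMIs, and 37 of them had Xist RNA and 248 a Y-linked UMI, so these shares are not compared between depths. Per UMI, and with each library's barcodes counted, Y-linked RNA was at 23.9 CPM in 24 cells with several members, seen in 2 of them, and at 108 CPM in the other 322, and Xist RNA at 406 and 28.2 CPM.

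**Figure D5:**
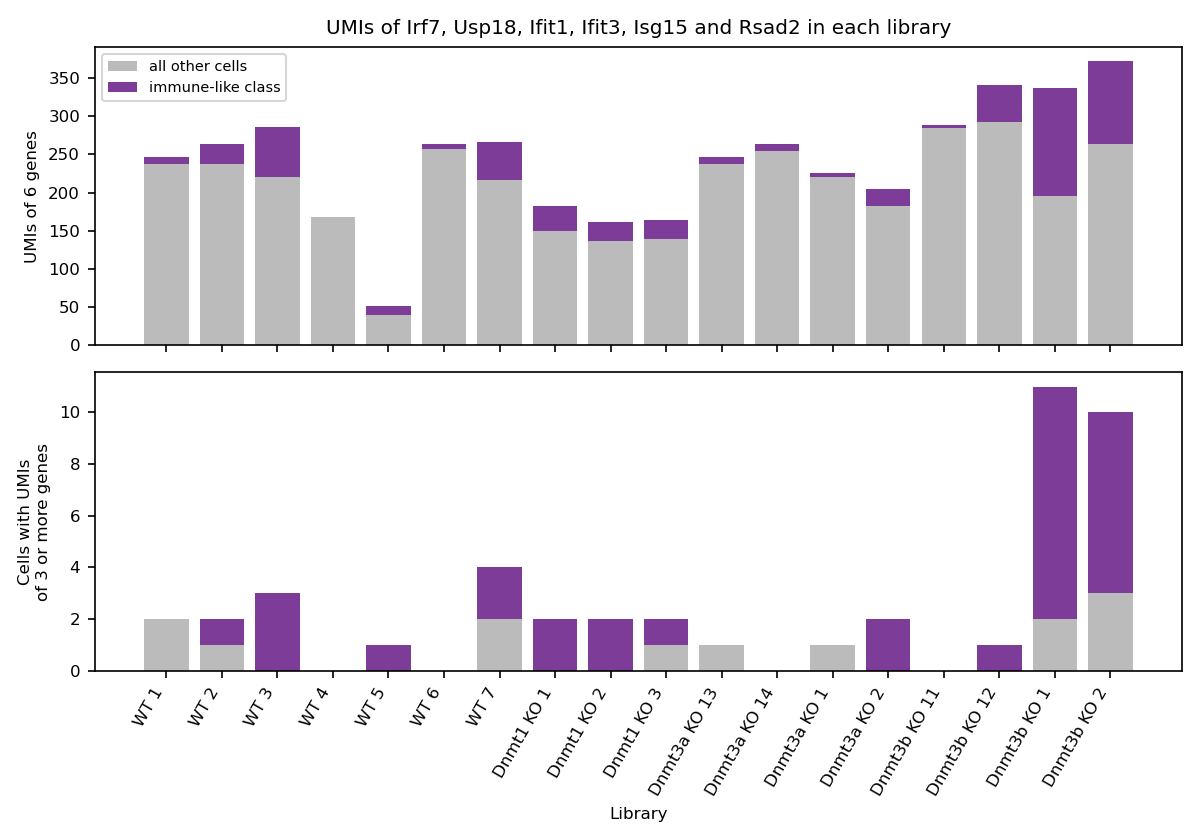
Bars show for each library the number of UMIs of 6 members (Irf7, Usp18, Ifit1, Ifit3, Isg15 and Rsad2, upper panel) and the number of cells with UMIs of at least 3 of them (lower panel), stacked by whether they lay in the immune-like class. The immune-like part is highest in Dnmt3b KO 1 and 2, the pair that shares barcodes, with 142 and 109 UMIs and with 9 and 7 cells.

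The share of cells with a Bst2 UMI was compared after each cell was thinned to 1500 UMIs. It was 14.1% ± 5.20 in Dnmt1 KO (SD, n = 3) and 5.10% ± 1.12 in WT (n = 7), with 5.92% ± 2.96 in Dnmt3a KO (n = 4) and 5.86% ± 1.59 in Dnmt3b KO (n = 3). Without thinning the shares were 60.4, 30.6, 24.5 and 29.1%. These shares are over all cells of an embryo, so they also follow the make-up of cell types, which differed between the groups. More cells of a type that holds Bst2 and more such cells within a type cannot be told apart in them. In presomitic mesoderm, a class with little Bst2, the thinned share was 0.588% ± 1.02 in Dnmt1 KO and 0.628% ± 0.759 in WT, and the unthinned share 35.4% against 10.8%, with library medians of 35692 to 57908 UMIs per cell against 26367 to 56698. The thinned share there was 0% in Dnmt1 KO 1 and 2, so at that depth no difference between the groups can be read in this class. In ExE endoderm, the class richest in Bst2, the thinned share was 28.6% ± 0.966 in Dnmt1 KO and 24.6% ± 3.0 in WT. The other members were seen in under 0.5% of thinned cells in every group, Ddx58 highest at 0.479% in Dnmt3a KO and 0.477% in WT, a depth at which no difference in the share of cells can be read.

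The rest of the pathway was followed through lists of 111 other genes, of which 109 were in the files and 81 passed the filter. In Dnmt1 KO 10 of the 81 were called higher and 4 lower, where 8.15% and 6.11% of all genes were, with a median log2 fold change of 0.17 over the 81 beside 0.01 over all genes. In Dnmt3a KO none was called (median -0.06), and in Dnmt3b KO 2 were called higher, where 1.77% of all genes were (median 0.09). Among the ligands, no UMI of Ifnb1, interferon beta, was found in any library. Ifnk, interferon kappa, was the only one of 20 ligands to pass the filter and was higher in Dnmt1 KO, from 38 UMIs against 28 in WT (log2 fold change 2.34, SE 0.40, adjusted p = 0.000239). None of the 13 genes of the receptors and of JAK-STAT signalling was called in Dnmt1 KO. The receptor chains Ifnar1 and Ifnar2 were at 0.14 and -0.38 (log2, adjusted p = 0.404 and 0.0168). Stat2 was at 0.16 and Irf9 at 0.43. The adaptor Mavs was at -0.39 and Irf3 at 0.15, neither called.

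Of 14 tested genes of sensing, 2 were called lower in Dnmt1 KO, where 6.11% of all genes were, and none higher, where 8.15% were. Tmem173, the adaptor STING of DNA sensing, fell by 1.36 in log2 units (SE 0.29, adjusted p = 0.00140), a call lost without the extraembryonic and immune-like classes (-0.85), and Mb21d1, the DNA sensor cGAS, fell by 1.62 (SE 0.39, adjusted p = 0.00359). Of 9 genes of antigen presentation 3 were called higher, beside the same 8.15% of all genes. Tap1 and Tap2, the peptide transporter, rose by 2.47 (SE 0.36, adjusted p = 4.68e-05) and 3.07 (SE 0.58, adjusted p = 0.000532), and the proteasome subunit Psmb9 by 2.12 (SE 0.46, adjusted p = 0.00180). Without the extraembryonic and immune-like classes Tap1 was at 1.01, Tap2 at 1.45 and Psmb9 at -0.036, and none was called.

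Of 44 other interferon-stimulated genes 6 were called higher and 2 lower in Dnmt1 KO, beside 8.15% and 6.11% of all genes. Ifi27 was at 0.554 CPM in Dnmt1 KO, 0.517 in Dnmt3b KO, 0.0719 in Dnmt3a KO and 0.0567 in WT. It rose by 3.31 in log2 units in Dnmt1 KO (SE 0.37, adjusted p = 3.10e-06) and by 3.1 in Dnmt3b KO (SE 0.36, adjusted p = 2.71e-05). Phf11d rose by 1.98 in Dnmt1 KO (SE 0.34, adjusted p = 0.000263) and by 2.89 in Dnmt3b KO (SE 0.34, adjusted p = 2.71e-05). Without the libraries labelled Dnmt3b KO 11 and 12 the values in Dnmt3b KO were 2.33 for Ifi27 (adjusted p = 0.0226, not called) and 1.87 for Phf11d (adjusted p = 0.00251), from a group of 1 sample with the spread taken from the other groups. In Dnmt1 KO both were also called without the extraembryonic and immune-like classes. The OAS enzymes, which make the activator of RNase L, rose for Oas1g (2.77, SE 0.51), Oas1a (1.76, SE 0.37) and Oas3 (1.69, SE 0.35), with adjusted p-values of 0.000487, 0.00127 and 0.00113. Without the extraembryonic and immune-like classes Oas1a was at 0.61 and Oas3 at 0.94, neither called, and Oas1g and Ifnk did not pass the filter. Parp14 rose by 1.28 (SE 0.31, adjusted p = 0.00347). Leaving out 1 library at a time gave 0.927 to 1.48 for Parp14, so its change could fall under the 1 log2 unit of a call. Gbp7, a GTPase induced by interferon gamma, fell from 0.489 CPM in WT to 0.0648 CPM in Dnmt1 KO (log2 fold change -2.86, SE 0.28, adjusted p = 7.24e-07), and Parp9 fell by 1.06 (SE 0.26, adjusted p = 0.00406).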

How the data were processed

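Single-cell RNA-seq had been done on dissociated single E8.5 embryos with 10x Genomics 3′ v3. The authors assigned reads to genes with Cell Ranger and deposited, unnormalised, the UMI counts of barcodes called as cells. The matrix headers name Cell Ranger version 3.1.0 for 17 libraries and 5.0.0 for Dnmt3b KO 12. The gene lists of 4 libraries include a human genome next to the mouse genome, in which the human copies of the members held 0 UMIs. The 9 genes, the pathway lists and the cell type markers were chosen with earlier results of these data known.

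Here, barcodes with at least 1500 mouse UMIs were kept if at most 30% of counts were mitochondrial and at most 35% ribosomal, and 7924 doublets called by Scrublet (scanpy 1.11.5, at 0.8% per 1000 cells) were removed. Up to 1500 cells per library were clustered (2500 variable genes, 50 components, 30 neighbours, Leiden resolution 2), which gave 63 clusters, 54 named from marker lists and 9 unnamed, and other cells took the class of their neighbours. The members and the pathway genes did not enter the clustering. Counts were summed per embryo and per class within an embryo (25 cells or more). All 4 groups were fitted together with edgeR 4.0.16 (quasi-likelihood test, TMM, its filter on low counts, R 4.3.3), with Benjamini-Hochberg adjustment over all genes of a fit. The call rule of the study was used, an adjusted p below 0.01 together with a change of 1 log2 unit or more. The script was tested on simulated data. DESeq2 1.42.0 was an alternative. Besides the members, the text names up to 12 pathway genes with the smallest p among those called, and 8 ligands, receptors, factors and adaptors whatever they did, of which 1 is not reported here. Mb21d1 and Parp9 were added after their values were seen. Positions are on GRCm38, and promoter windows are from RefSeq. Embryos are separate animals by their labels, and Dnmt3b KO 1 and 2 were summed as 1 sample because they shared barcodes, while counts per class cover counting error only where few UMIs are given.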

Additional observations from a re-analysis of the deposited data

Results flagged for a closer look

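Usp18 stood out in 1 of 30 groups of libraries examined for a single distant value, where chance alone would mark about 1 group in 20. The WT 5 library was at 0.520 CPM, the next of the 7 WT libraries was at 0.302 CPM, and the gap was 0.637 of the whole range. WT 5 is also the library with the fewest UMIs (36516346).

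The difference of Bst2 between Dnmt1 KO and WT was compared between cell classes. Relative to ExE endoderm of the same embryos, the difference on the log2 scale was 2.05 in gut, 1.89 in erythroid cells, 1.78 in presomitic mesoderm, 0.78 in ExE mesoderm and -0.67 in endothelium, each past an adjusted p of 0.05 in exact permutation tests over 10 embryos. These tests were added after the class values had been seen, so they describe a separation already noticed, and they share 1 reference class. With at least 50 cells per class the endothelium difference was -0.47 (exact permutation p = 0.143), with fewer Dnmt1 KO embryos, so that p could not fall under 0.05. Gut had too few cells to be tested at that setting. The Bst2 level of ExE endoderm was itself higher in the 3 Dnmt1 KO embryos than in any WT embryo, at 223 to 237 CPM against 166 to 208 CPM.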

How the results depend on the processing

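Replicate numbers are shared between groups, and the labels do not say that they pair the embryos. The correlation of deviations from the group means was -0.243 to 0.196 over 13 pairs of embryos with the same number, 3 of them over 0.1, and -0.346 to 0.437 over 104 other pairs. Pairs with the same number were thus not more alike by this measure, but it cannot exclude a shared litter or run. With the replicate block, 0 members were called in Dnmt1 KO against WT (Bst2 1.67, adjusted p = 0.0182, Rsad2 0.87, adjusted p = 0.0731), 0 against Dnmt3a KO and 0 against Dnmt3b KO, 9 other pathway genes in Dnmt1 KO and 0 in Dnmt3b KO. Of the pairs of member and class in Dnmt1 KO, 4 were called higher and 2 lower with the block, beside 5 and 2 in the main fit. Under the block the sign turned for Ddx58 (0.013 in Dnmt1 KO, 0.064 in Dnmt3b KO), Bst2 (-0.36 in Dnmt3b KO), Irf7 (0.24 in Dnmt3a KO) and Usp18 (0.21 in Dnmt3a KO, 0.80 in Dnmt3b KO).

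With Y-linked RNA as a covariate 1 member and 8 other pathway genes were called in Dnmt1 KO against WT, and the sign turned for Irf7 (-0.24) and Usp18 (-0.075) in Dnmt1 KO, Ifit1 in Dnmt3a KO (0.14) and Bst2 in endothelium of Dnmt1 KO (0.14). Without the extraembryonic and immune-like classes 2 members were called in Dnmt1 KO against Dnmt3b KO, and the sign turned for Isg15 (0.24) and Psmb9 (-0.036) in Dnmt1 KO, Bst2 (-0.30), Irf7 (0.61), Rsad2 (0.44) and Usp18 (0.079) in Dnmt3a KO and Ifit3 in Dnmt3b KO (-0.13). Without the libraries labelled Dnmt3b KO 11 and 12, which left 1 sample in that group, 0 members were called in Dnmt1 KO against Dnmt3b KO, and in Dnmt3b KO against WT Bst2 was at -0.28, Ddx58 at 0.016 and Usp18 at 0.50. In libraries thinned to the smallest, 7 other pathway genes were called in Dnmt1 KO, Ddx58 was at 0.088 in Dnmt1 KO, Ifih1 at -0.039 and Usp18 at 0.17 in Dnmt3a KO, and Usp18 at 0.016 in Dnmt3b KO. In Dnmt3a KO, Irf7 was at 0.019 with no filter on low counts, at 0.054 with all barcodes of at least 1500 UMIs and at 0.31 with the reference of the library as a covariate, which gave 0.28 for Ifit1. One pair of member and class, Rsad2 in endothelium, was called in Dnmt3b KO (1 pair) by DESeq2, with the Y-linked covariate and with no filter. The causes were not tested.

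Leaving out 1 library at a time gave 1 to 2 members called in Dnmt1 KO against WT (1 without Dnmt1 KO 1), 0 to 1 against Dnmt3b KO (0 without Dnmt1 KO 2), 7 to 16 other pathway genes in Dnmt1 KO (7 without Dnmt1 KO 2) and 0 to 1 pairs of member and class in Dnmt3b KO (1 without Dnmt3a KO 14). Log2 fold changes that changed sign ranged from -0.21 to 0.19 for Ddx58 in Dnmt1 KO, -0.16 to 0.18 for Bst2, -0.38 to 0.22 for Ifit1, -0.30 to 0.28 for Irf7 and -0.29 to 0.019 for Usp18 in Dnmt3a KO, and -0.12 to 0.33 for Ifih1 and -0.30 to 0.11 for Usp18 in Dnmt3b KO. None of these was called. Bst2 in Dnmt1 KO against WT was called under each alternative but the replicate block. The members apart from Bst2 and Ddx58 rest on at most 537 UMIs in all WT embryos, which limits what can be seen of them, and Dnmt1 KO is represented by 3 embryos with 31 to 42 gut cells each. Taking the barcodes shared by Dnmt3b KO 1 and 2 once was chosen after seeing the data.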
